A study of Oncorhynchus mykiss with 15 samples.

Results

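The miR-26 family is a group of microRNAs that share the seed of the 5p strand, terms that are explained below. Its members were followed here in the liver of wild-type rainbow trout (Oncorhynchus mykiss) during oxygen shortage and recovery. Members were the salmon-named (ssa) rows of the deposited small RNA table with miRNA number 26, any letter and either arm. The rule found 6 of 1213 rows. Because ssa-miR-26a-5p and ssa-miR-26d-5p_1ss12TC carried the same sequence and the same values, these rows held 5 distinct profiles (sets of values) across the 15 libraries. Livers came from fish kept as control, from fish under hypoxia for 3, 12 or 24 h, and from fish after 3 h of reoxygenation, with 3 libraries in each of the 5 groups. The oxygen level, the age of the fish and the length of hypoxia before reoxygenation are not stated by the labels.

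A microRNA gene is transcribed as a hairpin, from which a 5p and a 3p strand are cut. One strand is usually loaded into an Argonaute protein and guides it to messenger RNAs that match the seed, bases 2 to 8 of the strand, while the other strand is mostly degraded. In vertebrates the miR-26 hairpins lie in introns of genes of the CTDSP phosphatase family, and the 5p strand is the main product. In mouse liver miR-26a is known for restraining glucose and fatty acid synthesis and improving insulin sensitivity, and miR-26 is on the list of miRNAs induced by hypoxia in mammalian cell lines.

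The sequences below show which members can be told apart, with the seed in capitals and DNA letters as in the deposited table. The 3 rows of the 5p strand had one seed in common.
ssa-miR-26a-5p: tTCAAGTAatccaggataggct
ssa-miR-26d-5p_1ss12TC: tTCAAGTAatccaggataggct
ssa-miR-26b-5p_R-2: tTCAAGTAatccaggatagg
ssa-miR-26b-3p: cCTATTCTgcatgacttggttc
ssa-miR-26a-3p: cCTATTCTcgattacttgtttc
ssa-miR-26a-3-3p: cCTGTTCTtgattacttgtttc

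The 20 bases of ssa-miR-26b-5p_R-2 were the first 20 of the 22 bases of ssa-miR-26a-5p. By its name this row is a miR-26b form that lacks 2 bases at the 3′ end, and a read of this sequence could equally be a shortened miR-26a. The tag of ssa-miR-26d-5p_1ss12TC marks a T of the named miR-26d replaced by C. By that name the shared sequence differs from miR-26d at this base. The 5p rows therefore separate a long and a short form, not the genes they came from. The 3p strands differ from each other in sequence, so their rows can be told apart. ssa-miR-26a-3p and ssa-miR-26a-3-3p differed at 2 of 22 positions, counted from 1 at the 5′ end with the base of ssa-miR-26a-3p first: A4G, inside the seed, and C9T. ssa-miR-26b-3p had the same seed as ssa-miR-26a-3p and differed from it at 4 positions outside it.

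The table holds normalized values rounded to whole numbers, on a scale that is not given, so the read depth behind a value is unknown. The sum over distinct profiles, called the library total here, was 5734503 to 5766802 in the 12 h libraries, against 2218703 to 2529704 at 3 h of hypoxia and 2090585 to 4385366 in control. miR-122, the defining miRNA of hepatocytes, was present in every library and took 55.7% to 60.2% of the total at 12 h, against 21.5% to 35.7% at 3 h and 24.7% to 33.6% in control. Over all tested rows, the SD of the log2 difference between libraries of a group was 1.01 to 1.39 within 12 h and within 3 h. It was larger between library 1 and the other 2 at reoxygenation (2.87 and 2.91), at 24 h (2.15 and 2.05) and in control (1.82 and 1.72), whose other 2 libraries differed by 1.06 to 1.42. miR-122 took 59.0%, 35.7% and 25.2% in the 24 h libraries and 57.2%, 26.5% and 52.9% after reoxygenation. Where leaving one of these out changes a call, the value without them is given. The labels call the 3 libraries of a group separate samples and no more, so p-values reflect the spread among samples, which may be technical. In bulk liver, fewer cells that hold a miRNA and less of it per cell cannot be told apart.

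The 5p strand made up nearly all of miR-26. ssa-miR-26a-5p averaged 0.289% ± 0.0911 of the library total (SD, n = 15) and ranked 34 among 1019 profiles by its mean. ssa-miR-26b-5p_R-2 averaged 0.134% ± 0.0520 and ranked 51. The 3p strands ranked far lower, ssa-miR-26b-3p at 323, ssa-miR-26a-3-3p after it and ssa-miR-26a-3p at 725. All 3 3p forms together held between 0.421% and 1.63% of the summed ssa miR-26 values of a library.

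On the deposited scale ssa-miR-26a-5p was highest in the livers taken after 12 h of hypoxia, while as a percent of the library total it was 0.243% to 0.351% at 12 h, against 0.229% to 0.462% in control. Its deposited values were 10044, 11517 and 9028 in control, 6447, 9144 and 8522 after 3 h of hypoxia and 13928, 18639 and 20222 after 12 h. They were 16390, 6277 and 5843 after 24 h and 7726, 5244 and 11027 after reoxygenation. All 3 libraries of 12 h lay above all libraries of control, as in 16.9% of all tested rows, and above all of 3 h, as in 20.7%. Library 1 of 24 h, with miR-122 at 59.0%, lay among the 12 h values while the other 2 lay below every control. Libraries 1 and 3 of reoxygenation, with miR-122 at 57.2% and 52.9%, were at 7726 and 11027. The mean was 17596 ± 3274 at 12 h and 10196 ± 1251 in control (SD, n = 3 each), a log2 difference of 0.78 ± 0.40 (SE), 1.71-fold, that did not pass (limma adjusted p = 0.212).

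The short form followed the long one. ssa-miR-26b-5p_R-2 was at 2934, 3719 and 5350 in control, 4442, 3880 and 4260 after 3 h and 7367, 7620 and 10102 after 12 h. It was at 8423, 2198 and 2419 after 24 h and 3799, 2620 and 4792 after reoxygenation. The 12 h libraries again stood above every control and 3 h library, and library 1 of 24 h again stood with them. The log2 difference from control at 12 h was 1.09 ± 0.45 (SE), 2.13-fold, also short of the threshold (limma adjusted p = 0.137). Over the 15 libraries the log2 values of the 2 forms had a Pearson r of 0.87, and of 0.81 after scaling to the library total, a description of rows that share libraries and most of their sequence.

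**Figure D1:**
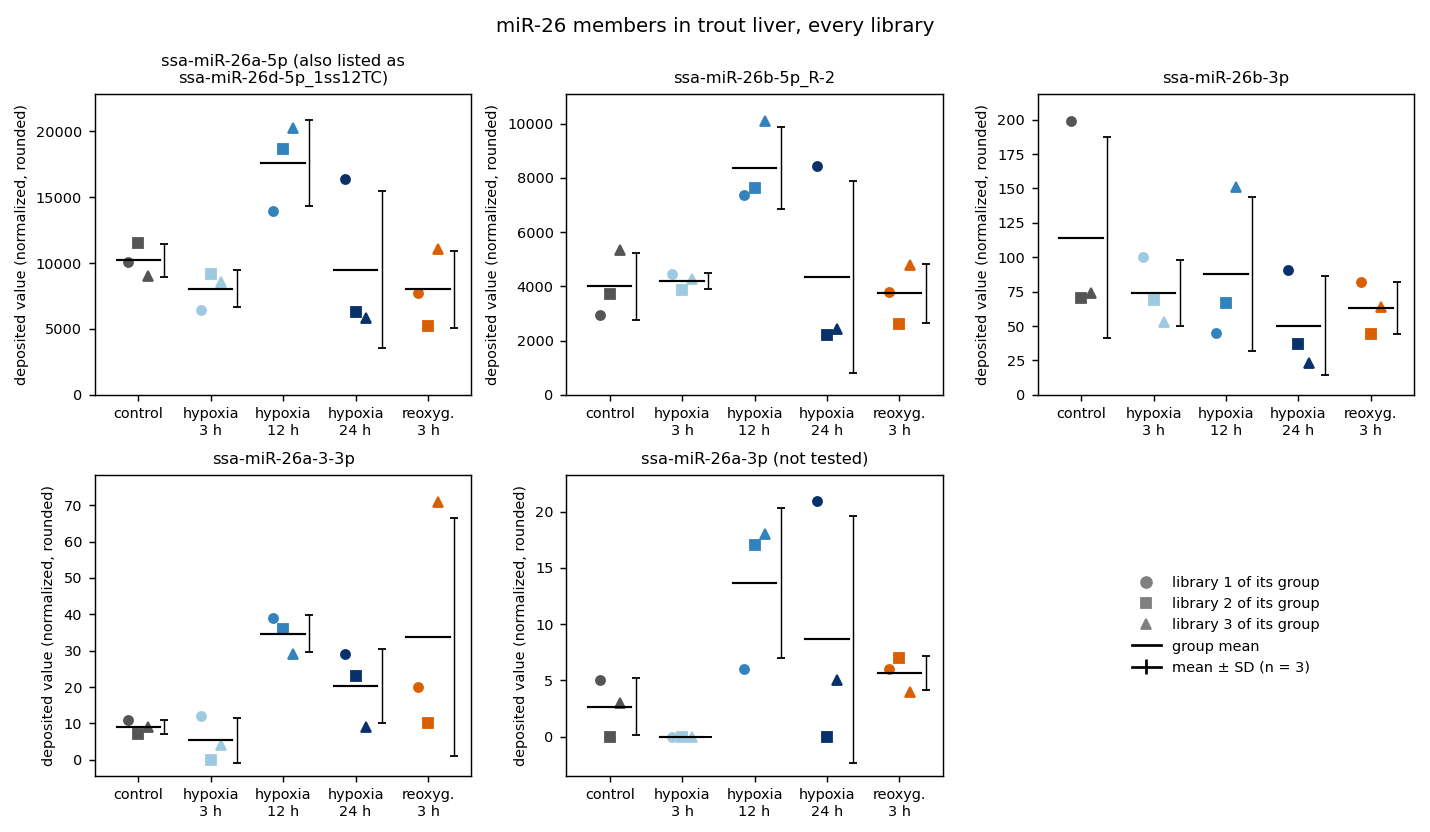
Deposited values (normalized and rounded, linear axes, no unit given) of the 5 miR-26 profiles in each of the 15 libraries, by group. Symbols mark libraries 1 to 3, lines the group mean and bars the mean ± SD (n = 3), which can reach below 0. Both 5p forms have their 3 values of 12 h hypoxia above every control and 3 h value, and ssa-miR-26a-3p has the value 0 in each library of 3 h hypoxia.

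In order of mean level, ssa-miR-26a-5p ran from reoxygenation (7999) through 3 h (8038), 24 h (9503) and control (10196) to 12 h (17596). Below 12 h, neighbours in this order differed by less than the larger of their SDs, which were 2901, 1412, 5968 and 1251, and 12 h stood above control by more than either SD. For ssa-miR-26b-5p_R-2 the order was reoxygenation (3737), control (4001), 3 h (4194), 24 h (4347) and 12 h (8363), with only the last step larger than the SDs of both its neighbours, 1511 at 12 h and 3532 at 24 h.

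Summing the forms did not bring the 5p strand past the threshold. The 8 distinct profiles of any species name that contain the 20 bases of the short form were summed, an alternative chosen after seeing the data. This 5p total was 21922, 26900 and 31216 after 12 h, against 13488, 15743 and 14817 in control, and 25341, 8734 and 8473 after 24 h. Its log2 difference from control was 0.85 ± 0.40 (SE) at 12 h (limma adjusted p = 0.184). At the other 3 stages it lay between -0.34 and -0.21, with limma adjusted p from 0.729 to 0.994.

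The height of the 12 h values depended on the scale. Divided by the library total, the 5p total made up 0.382% to 0.542% of a 12 h library, 0.448% to 0.607% of a 3 h library and 0.308% to 0.709% of a control library. It made up 0.287% to 0.410% at 24 h and 0.249% to 0.383% after reoxygenation, both overlapping control. Its scaled log2 difference from control was -0.17 at 12 h, -0.65 at 24 h and -0.75 after reoxygenation (limma adjusted p from 0.306 to 0.734). The median difference of all tested rows was -0.55 at 24 h and -0.52 after reoxygenation. On this scale the log2 difference of ssa-miR-26a-5p from control at 12 h was -0.24 (limma adjusted p = 0.616) and that of ssa-miR-26b-5p_R-2 was 0.07 (limma adjusted p = 0.920). With miR-122 left out of the total they were 0.47 and 0.79, and with a correction for base composition in each library 0.35 and 0.59. The scalings also moved the median difference of all tested rows at 12 h, which was -0.20 as deposited, -1.19 scaled to the total, -0.50 scaled without miR-122 and 0.04 with the base correction. Both 5p forms lay above that median on each of these 4 scales. The part of the miR-122 share and of the library total in the 12 h values was not tested.

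**Figure D2:**
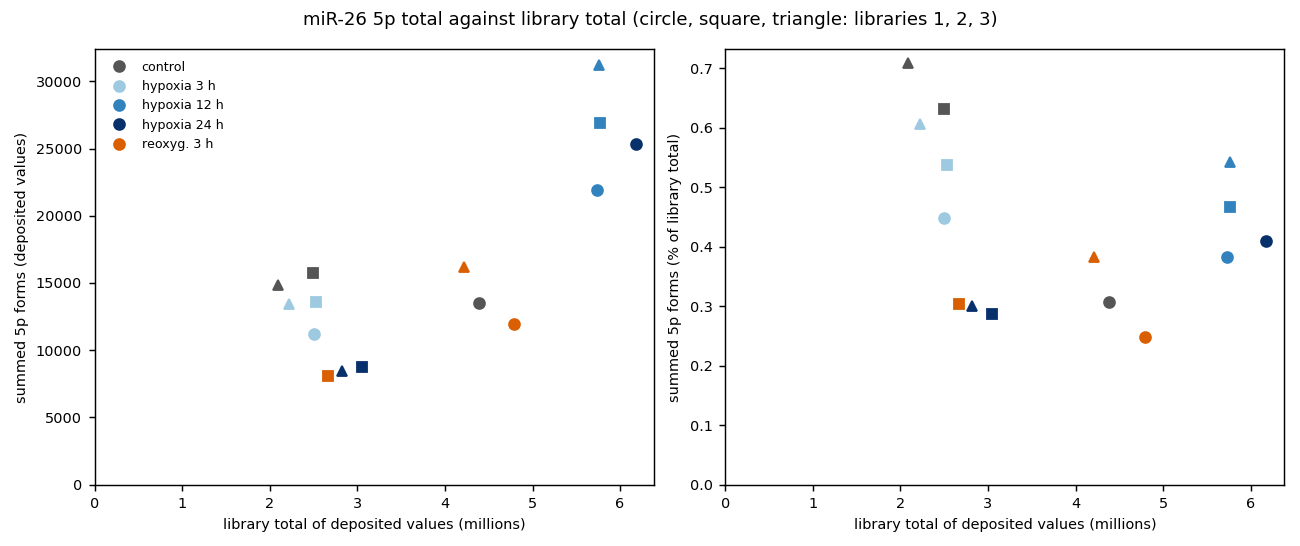
Summed miR-26 5p forms against the library total, both in deposited values on the left, and as a percent of that total on the right, 1 point per library. The 12 h libraries and library 1 of 24 h hypoxia hold the highest sums, 21922 to 31216, and also the highest library totals, while as a percent they lie inside the control range of 0.308% to 0.709%.

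Across the 4 comparisons with control, no tested member was called. Of the 6 rows, 5 averaged 10 or more over the libraries and entered the test, as 4 profiles. ssa-miR-26a-3p, with a mean of 6.13, did not. After 3 h of hypoxia 0 of 4 profiles were called and 0 had an unadjusted limma p under 0.05, where 0% of all 752 rows were called. After 12 h 0 of 4 were called, where 7.18% of all rows were called, and 1 of 4 had an unadjusted limma p under 0.05, against 26.7% of all rows. After 24 h 0 of 4 were called (0 at an unadjusted limma p under 0.05), against 0.665% of all rows, and after reoxygenation 0 of 4 (0 at an unadjusted limma p under 0.05), against 2.13%. The 12 h libraries lay above all controls in 3 of 4 profiles, both 5p forms and ssa-miR-26a-3-3p, and in 16.9% of all rows. The median difference over the 4 profiles at 12 h was 0.93, against -0.20 over all tested rows. In the test over all 5 groups 0 of 4 were called (limma adjusted p from 0.155 to 0.590), against 6.38% of rows, and 1 of 4 had an unadjusted limma p under 0.05, against 27.7% of rows. Without library 1 of 24 h hypoxia both 5p forms passed this 5-group test, at limma adjusted p of 0.0411 for ssa-miR-26a-5p and 0.0313 for ssa-miR-26b-5p_R-2, where 11.2% of all rows were called.

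**Figure D3:**
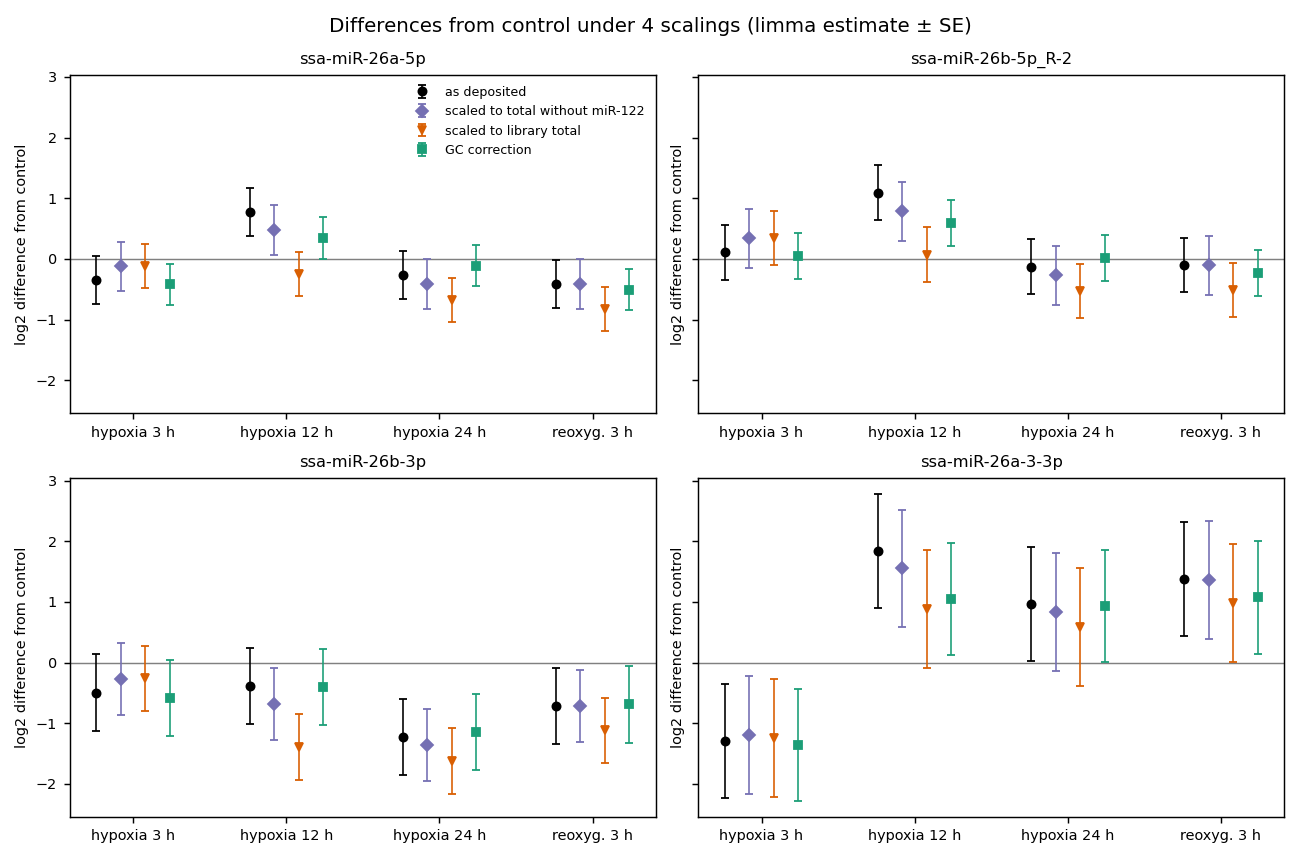
Log2 difference from control (limma estimate ± SE, 3 libraries per group) of the 4 tested profiles for the 3 lengths of hypoxia and for reoxygenation, on the deposited scale and under 3 other scalings. At 12 h ssa-miR-26a-5p lies at 0.78 as deposited and at -0.24 scaled to the library total, and ssa-miR-26a-3-3p lies above 0 in the 3 later groups on each of the 4 scales, never past the threshold.

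Between hypoxia durations, 1 member passed the test. ssa-miR-26a-3-3p, the minor strand of one miR-26a hairpin, was at 39, 36 and 29 after 12 h of hypoxia, against 12, 0 and 4 after 3 h. All 12 h values lay above all 3 h values, as in 20.7% of all tested rows. The log2 difference of ssa-miR-26a-3-3p was 3.14 ± 0.94 (SE), 8.81-fold on the log2(value + 1) scale (limma adjusted p = 0.0365). It was the only one of the 4 tested profiles called, in a comparison that called 16.8% of all rows, with 8.64% of all rows called higher. Its mean without the 12 h libraries was 17.1, so it met the filter without them. The call held in 8 of 17 other settings, with limma adjusted p from 0.0207 to 0.118. Among the 6 libraries compared it was lost with each left out except library 1 of 3 h, and the difference was 2.13 without library 2 of 3 h, the one at 0. It was also lost with the base correction (2.41, limma adjusted p = 0.107), on the scale of the library total (2.12, limma adjusted p = 0.104) and on that total without miR-122 (2.74, limma adjusted p = 0.0594).

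The 5p forms did not pass in the same comparison. At 12 h against 3 h ssa-miR-26a-5p differed by 1.13 ± 0.40 (SE; limma adjusted p = 0.0610) and ssa-miR-26b-5p_R-2 by 0.98 ± 0.45 (limma adjusted p = 0.136). With only these 2 groups in the fit, they reached limma adjusted p of 0.0115 and 0.0107, where 35.5% of all rows were called, and on the scale of the library total they became -0.13 and -0.27. At 24 h against 12 h, both forms were lower, with log2 differences of -1.04 and -1.22 (limma adjusted p = 0.188 for each), and 0 of 4 profiles were called, where 0% of all rows were called. At an unadjusted limma p under 0.05 there were 2 of 4, against 17.0% of all rows. Without library 1 of 24 h the differences were -1.52 and -1.84 and both passed (limma adjusted p = 0.0473 for each), where 4.79% of all rows were called. After reoxygenation, set against 24 h of hypoxia, the 4 differences lay between -0.14 and 0.51, and 0 of 4 were called (0 at an unadjusted limma p under 0.05), again where 0% of all rows were called.

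The 3p strands of miR-26a and miR-26b differed in pattern. ssa-miR-26b-3p averaged 114 ± 73.4 in control (SD, n = 3), with 70 and 74 in libraries 2 and 3 and a higher value in library 1. It was at 100, 69 and 53 after 3 h of hypoxia and 45, 67 and 151 after 12 h. It was at 91, 37 and 23 after 24 h and 82, 44 and 64 after reoxygenation. On the deposited scale every one of these groups overlapped control. As a percent of the library total it was 0.00281% to 0.00454% in control and 0.00239% to 0.00400% at 3 h. It lay below every control at 12 h (0.000785% to 0.00262%), at 24 h (0.000815% to 0.00147%) and after reoxygenation (0.00152% to 0.00171%). Its scaled log2 difference at 12 h was -1.39 (limma adjusted p = 0.0787), against a median of -1.19 over all tested rows. As deposited, the log2 difference of ssa-miR-26b-3p from control ranged from -0.39 at 12 h to -1.22 at 24 h, with limma adjusted p from 0.421 to 0.995. Without library 1 of control it was -0.0085, 0.097 and -0.74 after 3, 12 and 24 h of hypoxia and -0.23 after reoxygenation. ssa-miR-26a-3-3p was at 11, 7 and 9 in control, 29, 23 and 9 after 24 h and 20, 10 and 71 after reoxygenation. Its log2 differences from control were -1.29, 1.84 and 0.97 after 3, 12 and 24 h of hypoxia and 1.37 after reoxygenation, none past the threshold (limma adjusted p from 0.212 to 0.995). ssa-miR-26a-3p, the strand of another miR-26a hairpin, was at 5, 0 and 3 in control, 6, 17 and 18 after 12 h, 21, 0 and 5 after 24 h and 6, 7 and 4 after reoxygenation. It is listed at 0 in each of the 3 h libraries. When all rows were tested without the filter, ssa-miR-26a-3p passed for 12 h against 3 h (3.74 ± 1.08, SE, limma adjusted p = 0.0412) and ssa-miR-26a-3-3p just missed (limma adjusted p = 0.0516). The share of all rows called without the filter is not given here, and the mean of ssa-miR-26a-3p, 6.13, lies near the floor.

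A share within a library does not change when the library is scaled as a whole, but the differences of its forms do. At 12 h against control, ssa-miR-26a-3-3p and ssa-miR-26b-3p differed by 1.84 and -0.39 as deposited. Scaled to the library total they differed by 0.88 and -1.39, none past the threshold. The 2 miR-26a forms together made up 7.44%, 9.09% and 14% of the 3p values in control and 10.7%, 0% and 7.02% after 3 h of hypoxia. They made up 50%, 44.2% and 23.7% after 12 h, 35.5%, 38.3% and 37.8% after 24 h and 24.1%, 27.9% and 54.0% after reoxygenation. Each of the 9 libraries from the later 3 groups lay above each of the 6 libraries from control and 3 h. Among all tested rows, 16.9% had every 12 h library above control and 20.7% had every one above 3 h. How often other shares of this kind split the libraries in this way is not given here. The mean share was 39.3% ± 13.8 at 12 h, 37.2% ± 1.54 at 24 h and 35.3% ± 16.3 after reoxygenation, against 10.2% ± 3.39 in control (SD, n = 3 each). By exact permutation, two-sided, p was 0.1 against control for all 3 and for 12 h against 3 h, the smallest that 3 against 3 can give, and 0.125 adjusted over the 5 comparisons made. At 3 h the share was 5.91% ± 5.44 (exact permutation p = 0.4). This share was chosen after its values were seen, so the p-values are no independent support. White blood cell miRNAs separated the same groups: their sum was 56743 to 63453 at 12 h, 40666 to 60405 at 24 h and 29011 to 70865 after reoxygenation, against 85901 to 187345 at 3 h and 72056 to 274711 in control. The sum was mostly miR-146, with group means of 55662, 47123 and 37808 in these 3 groups, against 134873 at 3 h and 135500 in control. miR-142 ran the other way, at 1014, 637 and 749, against 573 and 416, and miR-223 at 552, 426 and 545 was above control (347) but on both sides of 3 h (477). miR-150 at 2013, 3340 and 3447 lay below 3 h (3909) and on both sides of control (2939). miR-155 at 447, 568 and 1054 likewise lay below 3 h (1256) and on both sides of control (964). Muscle miRNAs (miR-1, miR-133, miR-206 and miR-499) separated these groups too. Their sum was higher, at 1500 to 3532 at 12 h, 865 to 2056 at 24 h and 1217 to 2361 after reoxygenation. It was 385 to 735 at 3 h and 510 to 651 in control. The means of miR-499 and miR-1 were higher in the later groups, and those of miR-133 and miR-206 were lower. The part of the white blood cell and muscle miRNAs in the share was not tested.

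The forms compared in this share also differ in base composition. The 2 miR-26a forms are 36.4% G and C and ssa-miR-26b-3p is 45.5%. As deposited, the log2 ratio of ssa-miR-26a-3-3p to ssa-miR-26b-3p was higher than in control by 2.23 at 12 h, by 2.19 at 24 h and by 2.08 after reoxygenation, with no overlap between groups. After the base correction these differences were 1.45, 2.08 and 1.76. The 12 h libraries then overlapped control (exact permutation p = 0.3, 0.375 adjusted over 5 comparisons), while those of 24 h and reoxygenation still did not (exact permutation p = 0.1 for each, 0.25 adjusted). Against 3 h, the ratio at 12 h was higher by 3.03 without overlap as deposited. After the correction this was 2.23 with overlap (exact permutation p = 0.2, 0.333 adjusted). How many ratios of other rows separate these groups is not given here.

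**Figure D4:**
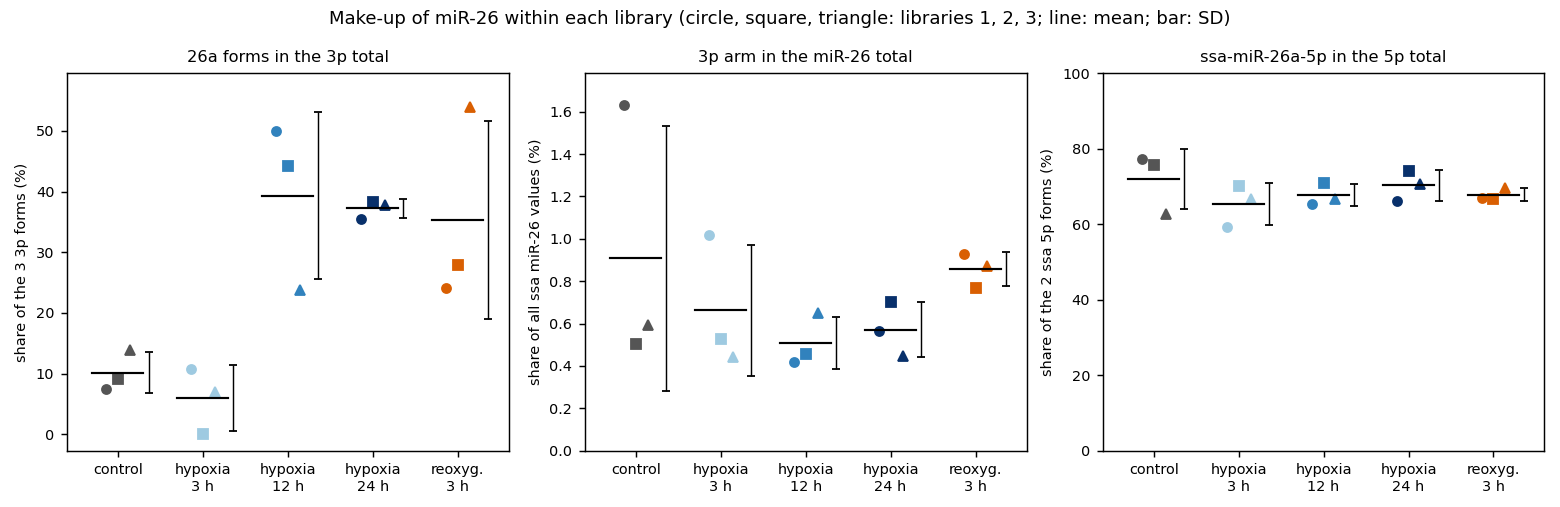
Make-up of miR-26 within each library, in percent: the 2 miR-26a forms in the sum of the 3 3p forms, the 3p forms in the sum of the 5 profiles, and ssa-miR-26a-5p in the sum of the 2 ssa 5p forms. The miR-26a share of the 3p values is at most 14% in control and 3 h libraries and at least 23.7% in all 12 h, 24 h and reoxygenation libraries, while the other 2 shares overlap control in every group.

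The balance of strands and of 5p forms differed from control by less than the SD of the controls. The 3p share of miR-26 averaged 0.663%, 0.508% and 0.571% after 3, 12 and 24 h and 0.856% after reoxygenation, against 0.909% ± 0.626 in control (SD, n = 3), where library 1 was at 1.63% and the other 2 at 0.503% and 0.595%. The exact permutation p were 0.6, 0.4, 0.6 and 1, and 0.8, 0.8, 0.8 and 1 adjusted over 4 comparisons. Without control library 1 the difference changed sign at 3 h, at 24 h and after reoxygenation, to 0.11, 0.02 and 0.31 percentage points. ssa-miR-26a-5p made up 65.4%, 67.7% and 70.3% of the ssa 5p values after 3, 12 and 24 h and 67.8% after reoxygenation, against 71.9% ± 7.96 in control (SD, n = 3), with exact permutation p of 0.3, 0.4, 0.7 and 0.4, and 0.533, 0.533, 0.7 and 0.533 adjusted.

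End variants extended the 5p family beyond the salmon names. A further 6 rows carry number 26 under other species prefixes, and all 6 contain the 20 bases of the short 5p form. Their means over the 15 libraries ran from 1.07 to 168, so they add little to the 5p total. In 5 of them 1 or 2 extra bases stand at the 5′ end, which shifts the seed, and together these took 1.64% to 4.46% of the 5p total of a library. The form with 2 extra bases is shown to compare its seed with that of the main strand above.
ola-miR-26_L+2R+1: aATTCAAGtaatccaggataggct

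This form, which is no ssa row and was picked after its values were seen, was at 29, 84 and 94 in control, 73, 100 and 157 after 3 h of hypoxia and 68, 56 and 106 after 12 h. It was at 19, 20 and 8 after 24 h and 21, 25 and 44 after reoxygenation. The 3 libraries of 24 h lay below all libraries of control, 3 h and 12 h, also library 1, in which the main 5p forms were high. How many of all tested rows do the same is not given here, so this pattern may be common. The row passed the test over 5 groups (limma adjusted p = 0.0432), a call that held in 11 of 26 other settings with limma adjusted p from 0.0123 to 0.126. It was lost with each library left out except library 1 of control, of 24 h and of reoxygenation. The single differences at 24 h did not pass: -2.0 ± 0.60 (SE) from control and -2.27 ± 0.60 from 12 h, with limma adjusted p of 0.146 and 0.107. Without library 1 of control the difference from control was -2.53 and passed (limma adjusted p = 0.0318), in a fit whose share of all rows called is not given here. Without library 1 of 24 h and library 1 of reoxygenation together, that from 12 h was -2.45 and passed (limma adjusted p = 0.0356), where 12.9% of all rows were called. The authors' deposited table gives this row a p-value of 0.0139 from a test that is not named, the ssa-miR-26a-5p row 0.0322 and the ssa-miR-26b-5p_R-2 row 0.0619. In the authors' deposited table the 3p rows have 0.109 for ssa-miR-26a-3p, 0.131 for ssa-miR-26a-3-3p and 0.528 for ssa-miR-26b-3p, and 19.0% of all 1213 rows are under 0.05.

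Among 252 other tested ssa profiles, those with the log2 pattern most like ssa-miR-26a-5p over the 15 libraries were ssa-miR-148a-5p (Pearson r 0.88, Spearman rho 0.86), ssa-miR-130b-3p_R+1_1ss21AT (0.83 and 0.76), ssa-miR-152-5p_L-1 (0.82 and 0.84), ssa-miR-458-3p (0.80 and 0.81) and ssa-miR-30d-5p_R-1 (0.79 and 0.73). Their G and C content was 39.1% to 40.9%, against 40.9% for ssa-miR-26a-5p. All of them share the libraries and their totals, and the log2 library total itself had a Pearson r of 0.71 with ssa-miR-26a-5p. Scaled to that total, the Pearson r of the 5 were 0.77, 0.68, 0.57, 0.59 and 0.54.

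The miRNAs listed with miR-26 in the mammalian hypoxia signature (miR-23, miR-24, miR-27, miR-103, miR-107, miR-181 and miR-210) gave 40 tested profiles. Of these 1 rose and 0 fell at 12 h, where 7.18% of all rows were called, and 1 rose and 0 fell after reoxygenation, where 2.13% were, in both cases ssa-miR-181a-1-3p, a minor strand of miR-181a. It was at 4833 ± 1002 at 12 h and 3336 ± 953 after reoxygenation, against 854 ± 319 in control (SD, n = 3 each), with log2 changes of 2.54 and 1.98 and limma adjusted p of 0.00387 and 0.0115. At 3 h and at 24 h 0 of 40 were called. Their median difference at 12 h was -0.08, against -0.20 over all tested rows. At 12 h against 3 h 1 rose and 7 fell, in a comparison that called 16.8% of all rows, with ssa-miR-181a-1-3p higher by 2.75 and, among those that fell, aca-miR-181a_L+1 at -3.68, ssa-miR-24b-3p at -2.20 and ssa-miR-181b-5p_R-1 at -2.14 (limma adjusted p from 0.000787 to 0.0268). The 2 most abundant, ssa-miR-181a-5p and ssa-miR-210-5p, differed from control at 12 h by -1.08 and 0.31 (limma adjusted p = 0.113 and 0.600). At 12 h against 3 h ssa-miR-181a-5p fell by 1.57 (limma adjusted p = 0.0251), while its minor strand rose.

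Of 67 profiles of liver lipid and glucose metabolism (miR-27, miR-29, miR-30, miR-33, miR-34, miR-103, miR-107, miR-122, miR-148 and miR-152), 2 rose and 1 fell at 12 h against control, where 7.18% of all rows were called. Those that rose were ssa-miR-152-3p, a relative of miR-148 (2.89, limma adjusted p = 0.00942), and ssa-miR-29b-3p (1.63, limma adjusted p = 0.0448). ssa-miR-33a-3p, the minor strand of a regulator of cholesterol export, fell (-1.66, limma adjusted p = 0.0241). In the other comparisons with control 0 of 67 were called. At 12 h against 3 h 7 rose and 1 fell, where 16.8% of all rows were called, among them ssa-miR-29c-5p (4.78), ola-miR-152_1ss23CA (3.81), ssa-miR-152-3p (3.68) and fru-miR-152_1ss1TN (2.98), with limma adjusted p from 0.00099 to 0.0367. The 2 most abundant were ssa-miR-122-5p_R-1 and ssa-miR-30b-5p_R-1, with differences from control at 12 h of 1.97 and -0.22 (limma adjusted p = 0.0645 and 0.801). Both lists have members in common, and the median of this one at 12 h was 0.13. The differences of both lists are as deposited, and those scaled to the library total are not given here. That scaling moved the median difference of all tested rows at 12 h against control from -0.20 to -1.19.

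Markers of other liver cells were set beside the 12 h values of the 5p forms. Hepatocyte miRNAs (miR-122, miR-192 and miR-194, 3 of 3 found) summed to 3284849 to 3536783 at 12 h, against 501153 to 939985 at 3 h and 549819 to 1443305 in control. This sum was nearly all miR-122, with means of 3300620 at 12 h, 721862 at 3 h and 914100 in control. The means of miR-192 (37822, against 18768 and 25178) and miR-194 (31349, against 15316 and 15690) were higher as deposited. Their percent of the library total is not given here. White blood cell miRNAs, whose sums are given above (miR-142, miR-146, miR-150, miR-155 and miR-223, 5 of 5 found), had a lower sum at 12 h than in every control and 3 h library, carried by miR-146. The means of miR-150 and miR-155 were also lower at 12 h, while those of miR-142 and miR-223 were higher. Endothelial and stromal miRNAs (5 of 5 found) summed to 141917 to 169305 at 12 h, against 98034 to 146557 at 3 h and 101694 to 147772 in control. As a percent of the library total they were lower, 2.47% to 2.94%, against 3.88% to 5.86% and 3.30% to 5.93%. The means of miR-126 (44257, against 7344 at 3 h and 10286 in control) and miR-143 (53781, against 37371 and 41275) were higher at 12 h. Those of miR-199 (55274, against 65878 and 72837) and miR-214 (1342, against 4769 and 4443) were lower. miR-145 (3029) lay between 3 h (4100) and control (2551). Red blood cell miRNAs (3 of 3 found) summed to 4839 to 7042 at 12 h and to 3830 to 8964 at 3 h, and overlapped control at 2912 to 7829. The sum was mostly miR-451, with means of 5249 at 12 h, 5343 at 3 h and 3958 in control. miR-144 (378, against 519 at 3 h and 476 in control) was lower at 12 h. miR-486 was at 0 in all 12 h libraries, against means of 526 at 3 h and 197 in control. At 12 h, at 3 h and in control, muscle miRNAs (4 of 4 found) were at 1500 to 3532, 385 to 735 and 510 to 651, neural and endocrine miRNAs (5 of 5 found) at 14755 to 15636, 6179 to 10442 and 7842 to 10974, and epithelial and bile duct miRNAs (5 of 5 found) at 6238 to 6897, 2774 to 10532 and 9240 to 10926. The higher muscle sum was mostly miR-499, with a mean of 2303 at 12 h, against 397 at 3 h and 484 in control. miR-1 (62, against 17 and 17.7) was also higher, while miR-133 (38.7, against 114 and 83.3) and miR-206 (2.33, against 21.3 and 10.7) were lower. The higher neural and endocrine sum was mostly miR-128 (14211, against 6724 and 7909). miR-7 (495, against 309 and 424) and miR-9 (30, against 3.33 and 2) were also higher. miR-375 (567, against 852 and 943) was lower, and miR-124 (2.33) lay between 3 h (2.67) and control (1). As a percent of the library total the neural and endocrine sum was 0.256% to 0.271% at 12 h, against 0.278% to 0.418% at 3 h and 0.250% to 0.432% in control. In the same order, the red blood cell sum was 0.0844% to 0.122%, against 0.153% to 0.404% and 0.0719% to 0.374%. The epithelial and bile duct sum was 0.108% to 0.120%, against 0.125% to 0.421% and 0.249% to 0.442%. The muscle sum was 0.0262% to 0.0612%, against 0.0174% to 0.0294% and 0.0143% to 0.0261%. The part of these markers in the miR-26 values was not tested.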

How the data were processed

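Small RNA libraries from trout liver, 3 in each of 5 groups, were read from 1 table. The authors deposited 1 score per row and library, normalized to a scale that is not stated and rounded to whole numbers, and a p-value for each row, whose test is not named. No header or label names the aligner or annotation, and read depth is unknown. Rows averaging 10 or more (752 rows, 622 profiles) were set on the scale log2(score + 1), where changes of low rows come out too small. They were modelled with limma 3.58.1 (R 4.3.3), with a trended variance and the 5 groups together. Benjamini-Hochberg adjustment ran over all tested rows of each comparison, at a threshold of 0.05. Shares had exact two-sided permutation tests (scipy 1.17.1). The base correction subtracted a lowess curve (span 0.5) of each library's deviation from the row mean on G and C content. Library totals count each distinct profile once. The fit was checked on simulated data.

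Members, lists and tests were chosen with earlier results of these data known. All member rows were named, with the 5 most similar ssa profiles, the 2 most abundant ssa profiles of each companion list and up to 4 called rows per comparison, the largest change first. Alternatives were other pseudocounts (0.5 and 10), filters (none and 50), scalings, the base correction, no variance trend, summed forms, 1 row per profile, a replicate block, a fit of just the groups compared, and leaving out each library.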

Additional observations from a re-analysis of the deposited data

How the results depend on the processing

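The one call among members, ssa-miR-26a-3-3p at 12 h against 3 h of hypoxia, gave 0 member rows called with a mean of at least 50 required (the row is then not tested), with both scalings to the library total and with the base (GC) correction. These counts are of rows, so ssa-miR-26a-5p and ssa-miR-26d-5p_1ss12TC, which are 1 profile, are counted separately. With the compared groups alone in the fit 4 of the 5 tested rows were called there, all but ssa-miR-26b-3p. At 12 h against control 1 was called (ssa-miR-26b-5p_R-2). The share of all rows called was 35.5% and 16.1%, against 16.8% and 7.18% with the 5 groups together. With 1 library left out the count lay between 0 and 1 at 12 h against 3 h, where it was 1 with all libraries, and between 0 and 3 at 24 h against 12 h and over the 5 groups, where it was 0. Without library 1 of 24 h and library 1 of reoxygenation together it was 3 in the last 2 of these, where 12.9% and 24.3% of all rows were called. Each count of 3 was the 3 rows of the 5p strand. In the other comparisons the count was 0 in every setting run. With the replicate block the count was unchanged in each comparison: 1 at 12 h against 3 h and 0 elsewhere. Whether the numbers pair the libraries is not settled: 8 of 15 correlated best with their own number, where each could match any of 3 numbers. At reoxygenation against 24 h the Pearson r of same-numbered libraries, on deviations from the group means, was 0.53, 0.35 and -0.018. The cause of the moves in the count was not tested.

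Scaled to the library total, ssa-miR-26a-5p became -0.24 at 12 h against control and -0.13 against 3 h, ssa-miR-26b-5p_R-2 -0.27 and ssa-miR-26b-3p -1.13 against 3 h, and the 5p total -0.17 at 12 h and 0.028 at 3 h against control and -0.20 at 12 h against 3 h. With miR-122 left out of the total, ssa-miR-26b-3p was -0.42 at 12 h against 3 h, and the 5p total 0.022 at 3 h against control and 0.041 after reoxygenation against 24 h. With the GC correction ssa-miR-26b-5p_R-2 was 0.0099 at 24 h against control and -0.25 after reoxygenation against 24 h. Without both stray libraries ssa-miR-26a-5p was 0.33 in that last comparison. None of these was past the threshold.

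Leaving out 1 library changed the sign within these ranges: ssa-miR-26b-5p_R-2 from -0.091 to 0.34 at 3 h, from -0.75 to 0.22 at 24 h and from -0.30 to 0.14 after reoxygenation, and ssa-miR-26b-3p from -0.87 to 0.10 at 12 h, all against control. At 12 h against 3 h ssa-miR-26b-3p ran from -0.38 to 0.49. After reoxygenation against 24 h the ranges were -0.41 to 0.34 for ssa-miR-26a-5p, -0.32 to 0.65 for ssa-miR-26b-5p_R-2 and -0.35 to 1.01 for ssa-miR-26a-3-3p. The 3p share of miR-26 ran from -0.449 to 0.114 percentage points at 3 h, from -0.541 to 0.0226 at 24 h and from -0.256 to 0.308 after reoxygenation, the ssa-miR-26a-5p share of the 5p forms from -6.21 to 1.09 at 24 h, and the log2 ratio of ssa-miR-26a-3-3p to ssa-miR-26b-3p from -1.41 to 0.18 at 3 h.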
